A study of Homo sapiens with 12 samples.

Results

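The mRNAs of AXL, ERBB2, ERBB3, RET, INSR, DDR2, EPHB2 and ROR1, all receptor tyrosine kinases, were followed by gene name in CAL62 cells, as 8 of the 37471 genes of the expression table used here. The table held 28 receptor tyrosine kinases in all, the 8 named ones and 20 others. Genes of chromosomes 3 to 9, and with them several well-known receptors, were not analysed here. The questions were which of these kinases the cells express and whether any of them moves when the microRNA miR-139-5p is induced.

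CAL62 is a human cell line from an anaplastic thyroid carcinoma, an undifferentiated cancer of the thyroid. In the series, 1 CAL62 line carried mature hsa-miR-139-5p behind a doxycycline-inducible promoter and another, isogenic line carried a scrambled control sequence in the same way. PolyA RNA was sequenced in 4 groups of 3 libraries: the line with the miRNA (miR-139 cells) after 96 h with 1 µg/ml doxycycline, the same cells without doxycycline (labelled 0 h), the line with the scrambled sequence (scrambled cells) after 96 h with 1 µg/ml doxycycline, and those cells without doxycycline (labelled 0 h). The design text instead has untreated cells grown alongside for 96 h. Every group therefore carried an inducible construct, and within a line doxycycline and any difference in time cannot be told apart. There was 1 line per construct, so the construct and any other difference between the lines cannot be told apart, with or without doxycycline. Each column name holds 1 of 3 tags (C, NE or TR), and each group had 1 library of each tag. The labels do not say what the tags mean or whether the 3 libraries of a group came from separate cultures. A p-value here therefore reflects only how libraries of 1 group scatter or, where the tag is in the model, the scatter left after group and tag. Either scatter may be technical.

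Receptor tyrosine kinases are membrane proteins that bind a ligand outside the cell, pair up and phosphorylate tyrosines inside it. Adaptor proteins then dock on those tyrosines and pass the signal to the RAS-ERK and PI3K-AKT pathways, while phosphatases, ubiquitin ligases and feedback inhibitors shut it down. In the thyroid, RET is the receptor of the calcitonin-producing C cells, and its rearranged forms drive a share of papillary carcinomas, whereas AXL is known from aggressive and drug-resistant carcinomas. A microRNA represses mRNAs whose 3′ untranslated region (3′ UTR) pairs with its seed, bases 2 to 8 counted from its 5′ end.

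The mature miRNA and the members' seed sites are shown because seed pairing is how the induced molecule recognises mRNAs. The first line is the RefSeq sequence of hsa-miR-139-5p (GRCh38.p14, chromosome 11, minus strand, 72615102 to 72615124), with its seed in capitals. The next lines are stretches of each gene's longest 3′ UTR in the annotation (GENCODE 29, GRCh38), read along the mRNA, with the searched site in capitals. In the EPHB2 line the last capital A lies opposite base 1 of the miRNA, outside the seed.

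hsa-miR-139-5p: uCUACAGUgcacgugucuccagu
AXL, first site: ttctaggcACTGTAGttctaaga
AXL, second site: aaccctatACTGTAGtattcttt
EPHB2: agggtctgCTGTAGAcagggatt
HNRNPF: atactaatACTGTAGgaattggt

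AXL was the only one of the 8 members whose 3′ UTR held ACTGTAG, the 7 letters complementary to the seed. It held them at 2 places, on the plus strand of chromosome 19 from 41261420 to 41261426 and from 41261515 to 41261521, in exon 20 of 20, at bases 1516 to 1522 and 1611 to 1617 of a 3′ UTR of 1862 bases. EPHB2 held the offset form CTGTAGA (bases 2 to 7 of the miRNA, followed by A) once, on the plus strand of chromosome 1 from 22919213 to 22919219, in exon 17 of 17. The 3′ UTRs of ERBB2, ERBB3, RET, INSR, DDR2 and ROR1 held neither form, and none of the 8 held the full 8-letter form ACTGTAGA. Of 7592 tested genes with a 3′ UTR, 869 (11.4%) held ACTGTAG, 1428 (18.8%) either form and 263 (3.46%) the 8-letter form, so 1 of 8 and 2 of 8 members stand near the shares of all genes. Only the given strand of the mRNA was searched, and the forms overlap in 6 letters. The fifth line is HNRNPF, an RNA-binding protein that the design text names as lowered by the miRNA.

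The level of the miRNA itself was not examined here, so HNRNPF, already named by the design text, served as the check of induction. It had 96.7, 113 and 85.9 FPKM in the tags C, NE and TR of treated miR-139 cells and averaged 98.5 ± 13.7 FPKM there, against 205 ± 28.8 FPKM in untreated ones (SD, n = 3 each). FPKM are fragment counts scaled to transcript length and library size, so levels can be compared between genes. In scrambled cells HNRNPF averaged 216 ± 43.3 FPKM with doxycycline and 208 ± 32.6 FPKM in untreated ones (SD, n = 3 each). The 3 treated libraries of miR-139 cells were the lowest of the 12. CAL62 also held the mRNA of PAX8, a thyroid transcription factor, at a mean of 107 FPKM, while NKX2-1, another one, was listed at 0 in all 12 libraries. Of 7 thyroid follicular markers in the table, only PAX8 had a mean of at least 1 FPKM. Of the epithelial markers, the keratins KRT8 and KRT18 had means of 618 and 663 FPKM and EPCAM 39.2 FPKM, whereas the adherens junction protein CDH1 had 0.0362 FPKM and was listed at 0 in 6 of 12 libraries. The mesenchymal markers VIM and FN1 had means of 1711 and 230.3 FPKM. Of the markers of thyroid C cells, CALCA, which encodes calcitonin, and GFRA4 were listed at 0 in all 12 libraries. Of 7 macrophage and leukocyte markers in the table, PTPRC, TYROBP and CD163 were listed at 0, and the highest was CD68 at a mean of 8.68 FPKM. Of 7 fibroblast markers in the table, COL3A1 was listed at 0 and only COL1A1, at 62.0 FPKM, had a mean of at least 1 FPKM.

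AXL was by far the most abundant receptor tyrosine kinase mRNA of the 28 in the table. AXL is the receptor for the vitamin K-dependent ligand GAS6 and belongs to the TAM family with TYRO3 and MERTK. It averaged 229 ± 44.8 FPKM over the 12 libraries (SD), which was 58.5% of the summed FPKM of the 28 kinases and higher than 96.7% of the 9778 tested genes. The next was EPHA2, an ephrin receptor that is not among the 8, with a mean of 56.9 FPKM. Among the 8 members AXL was followed by ERBB2 at 33.7 ± 2.59 FPKM, EPHB2 at 26.0 ± 3.02, INSR at 5.29 ± 0.771, ERBB3 at 4.04 ± 0.532 and ROR1 at 2.21 ± 0.751 FPKM (SD over 12 libraries). RET at 0.213 ± 0.123 FPKM and DDR2 at 0.196 ± 0.1003 FPKM (SD, 12 libraries) came last.

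**Figure D1:**
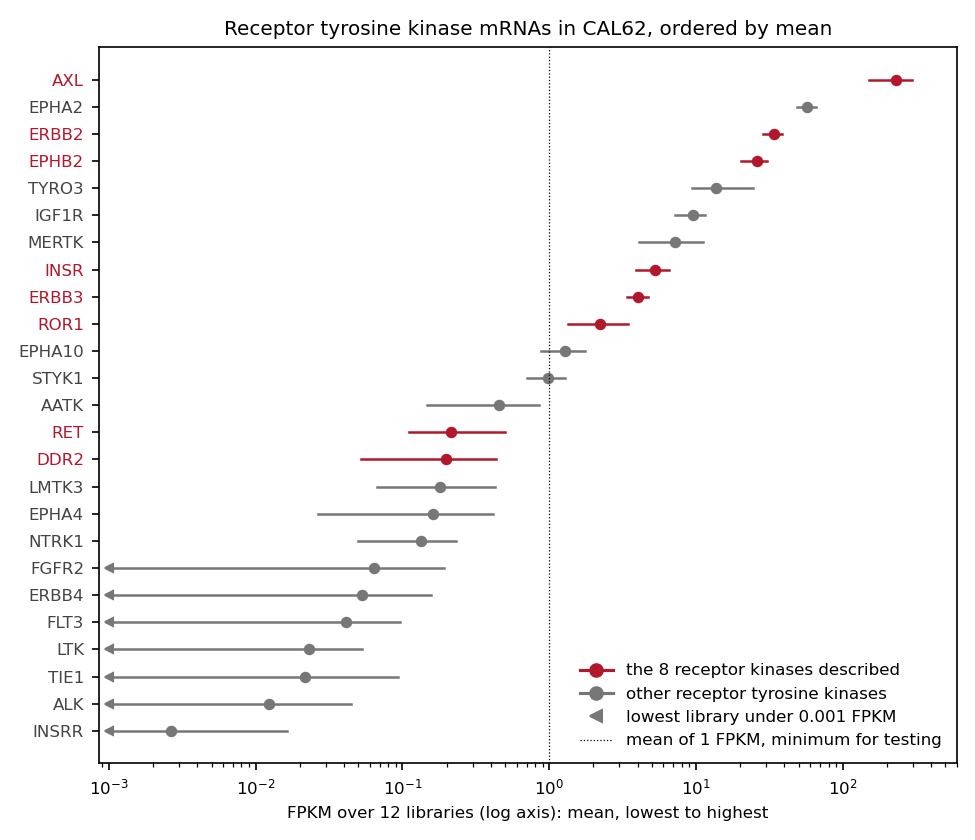
Mean FPKM (points, log axis) and lowest to highest library (lines) of the receptor tyrosine kinases above 0, with the 8 described ones in red and the others in grey. AXL, at a mean of 229 FPKM, stands to the right of all others, and RET and DDR2 lie to the left of the dotted line at 1 FPKM that marks the minimum for testing.

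The order of the members was stable at its large steps and less so at its small ones. AXL exceeded ERBB2 in 12 of 12 libraries, with means 6.79 times apart, and its lowest library (152 FPKM) lay above the highest of ERBB2 (38.4 FPKM). ERBB2 was above EPHB2 in 12 of 12 libraries although their ranges overlapped, with means 1.297 times apart. INSR was above ERBB3 in 11 of 12 libraries and ERBB3 above ROR1 in 11 of 12, again with overlapping ranges. RET was above DDR2 in 4 of 12 libraries, so the order of this pair is not settled by the data. Of the 20 other kinases, TYRO3 (13.7 FPKM), IGF1R (9.52), MERTK (7.23) and EPHA10 (1.28) also had means of at least 1 FPKM, so that 11 of 28 passed that level, 6 of them members. FLT1, NTRK3 and EPHA8 were listed at 0 in every library.

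Tests were run with limma on log2(FPKM + 1) for the 9778 genes with a mean of at least 1 FPKM, with Benjamini-Hochberg adjustment and a threshold of 0.05. Of the 8 members 6 passed this filter, and RET and DDR2 did not. The added 1 shrinks the log2 change of low genes such as ROR1. Libraries of the same tag deviated together, so each comparison was also fitted with the tag as a replicate block, which leaves the log2 changes as they are and changes their errors. With 3 libraries against 3, an exact permutation test cannot go below p = 0.1, and none was used. In bulk RNA, fewer cells that express a gene and less RNA per cell cannot be told apart.

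None of the 6 tested members changed past the threshold in any of the 5 comparisons of groups, either without the block or with it. Without the block no gene at all was called by limma (0% of 9778 genes in each comparison), and the counts at an unadjusted p under 0.05 were 72 genes for doxycycline in miR-139 cells, 47 in scrambled cells, 41 for the difference of these changes, 105 between the lines after doxycycline and 58 before it. With the block, limma called 2 genes for doxycycline in miR-139 cells (0.0205%), HNRNPF and the translation factor EIF4G2, both lower, and 0 genes in scrambled cells (0%, 391 at an unadjusted p under 0.05). It called HNRNPF alone for the difference of the changes (0.0102%), 11 genes between the lines after doxycycline (0.112%, 7 higher and 4 lower in miR-139 cells) and 0 genes before it (0%, 435 at an unadjusted p under 0.05). The lowest adjusted p of a member was 0.161, for AXL between the lines after doxycycline with the block. These comparisons share libraries with each other and are not independent. Without the block limma missed even HNRNPF for doxycycline in miR-139 cells (-1.05 on the log2 scale, adjusted p = 0.337). The lack of calls therefore does not show that the members were unchanged.

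AXL was lower with doxycycline in every tag of miR-139 cells and higher in every tag of scrambled cells, by small amounts that were not called. It had 226, 218 and 152 FPKM in the tags C, NE and TR of treated miR-139 cells, against 270, 230 and 176 FPKM in untreated ones. Scrambled cells had 284, 296 and 204 FPKM with doxycycline, against 268, 235 and 187 FPKM in untreated scrambled cells. Within each tag the doxycycline library of miR-139 cells was the lower one and that of scrambled cells the higher one, while the 3 libraries of a group overlapped with those of the others because the tags differed more than the groups.

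On the log2 scale AXL differed by -0.26, -0.08 and -0.21 in the C, NE and TR tags of miR-139 cells, a mean of -0.18 (SE 0.22 without the block and 0.09 with it, 95% confidence interval with the block -0.37 to 0.00). In scrambled cells its differences were 0.09, 0.33 and 0.13, a mean of 0.18. The difference of the changes was -0.37 (SE 0.31 without the block and 0.12 with it, 95% confidence interval with the block -0.63 to -0.10), which did not pass the adjustment over all genes. Of the 9778 tested genes, 233 (2.38%) were lower with doxycycline in 3 of 3 tags of miR-139 cells and higher in 3 of 3 tags of scrambled cells, and AXL was the only member among them. After doxycycline AXL was lower in miR-139 than in scrambled cells in 3 of 3 tags, by -0.40 on the log2 scale (SE 0.22 without the block and 0.09 with it, 95% confidence interval with the block -0.58 to -0.21; limma's adjusted p = 0.161 with the block and 0.9998 without it). ERBB3 and INSR were also lower there in 3 of 3 tags, and the share of all tested genes with this pattern was not counted. Before doxycycline the lines differed by -0.03 in AXL (95% confidence interval with the block -0.22 to 0.15). In the fits with the block that left out 1 library at a time, the difference after doxycycline was -0.45 to -0.34, with adjusted p from 0.0901 to 0.617.

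The other TAM receptors and the AXL ligand did not pass the test either. GAS6, the ligand of all TAM receptors, was itself abundant and averaged 193 ± 14.8 FPKM in miR-139 cells with doxycycline and 167 ± 18.6 FPKM in untreated ones, against 190 ± 37.1 FPKM in scrambled cells with doxycycline and 178 ± 26.7 FPKM in untreated ones (SD, n = 3 each). TYRO3 differed by 0.03 on the log2 scale with doxycycline in miR-139 cells and by 0.17 in scrambled cells (SE 0.13 with the block). MERTK, which clears apoptotic cells in macrophages, differed by 0.01 in miR-139 cells and by 0.00 in scrambled cells (SE 0.12 with the block). IGF1R, a relative of INSR, held 2 copies of ACTGTAG in its 3′ UTR, 1 of them the 8-letter form, and differed by -0.12 in miR-139 cells and by -0.07 in scrambled cells (SE 0.13 with the block).

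**Figure D2:**
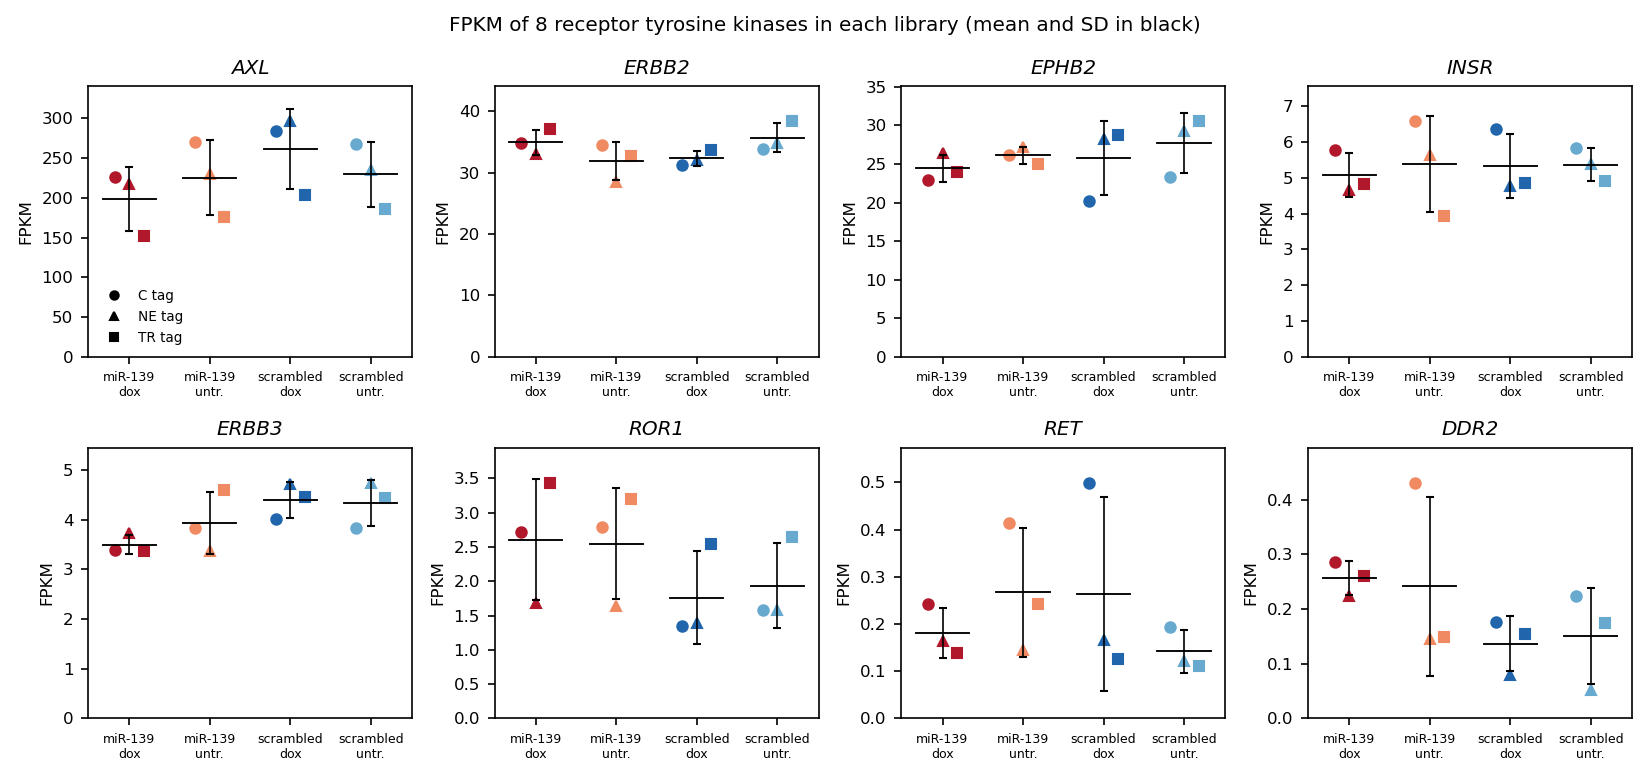
FPKM of the 8 receptor kinases in each library, with 1 panel per gene, the 4 groups along the horizontal axis, symbols for the 3 tags and the mean and SD of each group in black. The 4 TR squares of AXL, at 152 to 204 FPKM, lie under all its other symbols, and the 4 C circles of INSR, at 5.77 to 6.58 FPKM, lie above all its others.

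ERBB2 showed the reverse of the AXL pattern, with differences that were not called after adjustment over all genes. ERBB2 is the ERBB family member that has no known ligand of its own and signals as the partner of other ERBB receptors. It had 34.8, 33.0 and 37.1 FPKM in the tags C, NE and TR of treated miR-139 cells, against 34.5, 28.4 and 32.8 FPKM in untreated ones. In scrambled cells it had 31.3, 32.1 and 33.7 FPKM with doxycycline, against 33.9, 34.8 and 38.4 FPKM in untreated ones. The 3 treated libraries of scrambled cells were all below the 3 untreated ones, whereas the groups of miR-139 cells overlapped.

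Such a separation of the 3 and 3 libraries was seen in 263 genes (2.69%) for doxycycline in scrambled cells, and ERBB2 was the only tested member among them. In miR-139 cells 429 genes (4.39%) were separated in this way by doxycycline, and no member was. The log2 change of ERBB2 was 0.13 in miR-139 cells and -0.14 in scrambled cells (SE 0.09 with the block). The difference of these changes was 0.27 (SE 0.12 with the block, 95% confidence interval 0.00 to 0.53; not called). This direction, higher in 3 of 3 tags of miR-139 cells and lower in 3 of 3 of scrambled cells, was found in 155 genes (1.59%), with ERBB2 the only member.

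ERBB3, the neuregulin receptor with little kinase activity that pairs with ERBB2, was lower in miR-139 cells after doxycycline without passing the test. It had 3.39, 3.72 and 3.38 FPKM in the tags C, NE and TR of treated miR-139 cells, against 3.84, 3.37 and 4.61 FPKM in untreated ones. Scrambled cells had 4.003, 4.72 and 4.46 FPKM with doxycycline, against 3.84, 4.74 and 4.44 FPKM in untreated ones. The 3 treated libraries of miR-139 cells lay below the 3 treated ones of scrambled cells, a separation seen in 410 genes (4.19%) and, among the tested members, in ERBB3 alone. The difference was -0.26 on the log2 scale (SE 0.13 and adjusted p = 0.711 with the block), against -0.12 between the untreated lines. Between the untreated lines 285 genes (2.91%) were separated, and no member was. ERBB4 had a mean of 0.0531 FPKM and was not tested. Of the ERBB ligands in the list, TGFA averaged 11.6 FPKM and NRG4 1.81 FPKM over the 12 libraries, and NRG3 was listed at 0. ERBB family genes and ligands on the chromosomes left out were not analysed. Which receptor each listed ligand binds was not examined, so these levels do not describe the ligand supply of ERBB3 or ERBB2.

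INSR, the insulin receptor, did not move with either treatment beyond its error. It had 5.77, 4.65 and 4.82 FPKM in the tags C, NE and TR of treated miR-139 cells, against 6.58, 5.64 and 3.93 FPKM in untreated ones. In scrambled cells it had 6.37, 4.78 and 4.87 FPKM with doxycycline, against 5.83, 5.38 and 4.91 FPKM in untreated ones. The groups overlapped in both lines, and the log2 changes were -0.05 and -0.01 (SE 0.12 with the block), with 95% confidence intervals of -0.32 to 0.21 in miR-139 cells and -0.28 to 0.25 in scrambled cells. Its substrates IRS1 and IRS2, which carry the insulin signal to PI3K, averaged 7.20 and 8.16 FPKM over the 12 libraries and were not called. The insulin mRNA INS had 0 FPKM in 8 of 12 libraries and a mean of 0.0812 FPKM.

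EPHB2, a receptor for the membrane-bound B-type ephrins, was lower with doxycycline in every tag of both lines, by amounts within its error. How many of all tested genes share this pattern was not counted, so it is not read as a trait of EPHB2. EPHB2 had 22.9, 26.4 and 24.0 FPKM in the tags C, NE and TR of treated miR-139 cells, against 26.2, 27.2 and 25.0 FPKM in untreated ones. Scrambled cells had 20.2, 28.3 and 28.7 FPKM with doxycycline, against 23.3, 29.3 and 30.5 FPKM in untreated ones. The mean log2 changes were -0.09 in miR-139 cells and -0.11 in scrambled cells (SE 0.11 with the block), and their difference was 0.01 (95% confidence interval with the block -0.31 to 0.34). Its ligands EFNB1, EFNB2 and EFNB3 averaged 2.45, 1.31 and 5.03 FPKM over the 12 libraries, and none was called in these comparisons.

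ROR1, a receptor for WNT5 ligands that has little kinase activity, was higher in miR-139 than in scrambled cells both with and without doxycycline. It had 2.71, 1.68 and 3.44 FPKM in the tags C, NE and TR of treated miR-139 cells, against 1.35, 1.40 and 2.54 FPKM in scrambled cells with doxycycline. Untreated, it had 2.80, 1.64 and 3.21 FPKM in miR-139 cells, against 1.58, 1.58 and 2.65 FPKM in scrambled cells. All 6 pairs of the same tag and treatment had the higher value in miR-139 cells, which held for 254 genes (2.6%), and ROR1 was the only member among them. The log2 differences were 0.38 after doxycycline (SE 0.15, 95% confidence interval 0.07 to 0.70 and adjusted p = 0.581 with the block) and 0.27 before it (95% confidence interval with the block -0.05 to 0.58), and neither was called. With doxycycline ROR1 differed by 0.02 in miR-139 cells and by -0.09 in scrambled cells (SE 0.15 with the block). WNT5B, a WNT5 ligand, averaged 2.51 FPKM.

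RET and DDR2 had less than 1 FPKM in every library of all groups. RET had 0.241, 0.163 and 0.139 FPKM in the tags C, NE and TR of treated miR-139 cells, against 0.415, 0.145 and 0.242 FPKM in untreated ones, and 0.499, 0.166 and 0.125 FPKM in scrambled cells with doxycycline, against 0.193, 0.122 and 0.1102 FPKM in untreated ones. The RET co-receptor GFRA1 was listed at 0 in 10 of 12 libraries and GFRA4 in all 12, while the RET ligands ARTN, NRTN and PSPN averaged 1.76, 1.52 and 1.24 FPKM. DDR2, a receptor for fibrillar collagen, had 0.286, 0.224 and 0.261 FPKM in miR-139 cells with doxycycline, against 0.431, 0.145 and 0.149 FPKM in untreated ones, and 0.175, 0.0792 and 0.155 FPKM in scrambled cells with doxycycline, against 0.224, 0.0523 and 0.175 FPKM in untreated ones. The treated libraries of miR-139 cells were all above those of scrambled cells for DDR2, a separation seen in 4.19% of the tested genes, but values this low were not tested. COL1A1, which encodes a chain of type I collagen, a DDR2 ligand, averaged 62.0 FPKM.

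**Figure D3:**
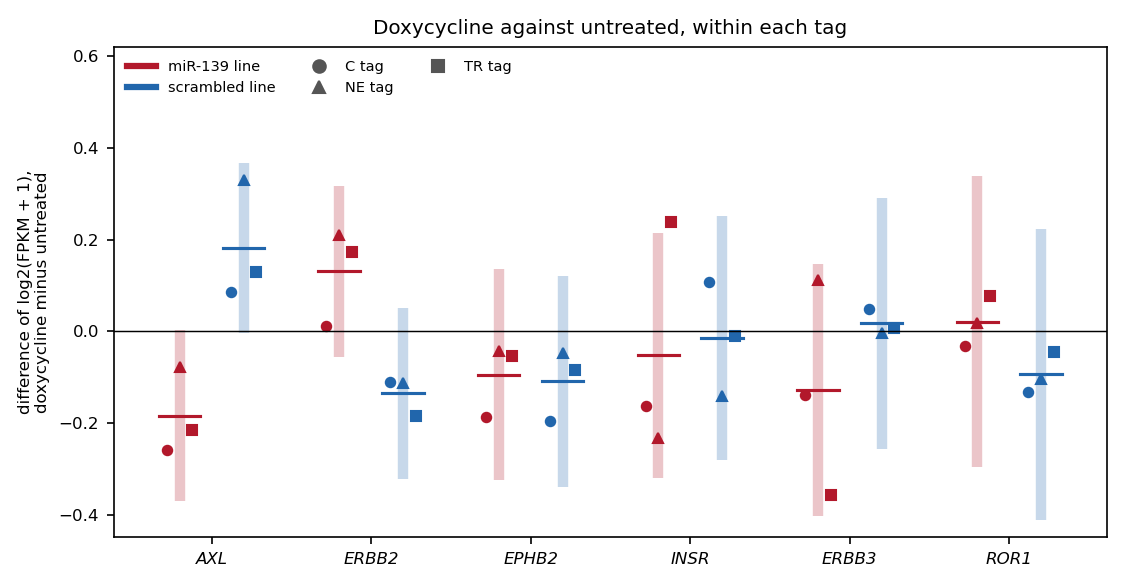
Difference of log2(FPKM + 1), doxycycline minus untreated, within each tag (symbols) for miR-139 cells (red, left) and scrambled cells (blue, right), with the mean (line) and its 95% confidence interval from the fit with the block (shaded). The 3 AXL symbols of miR-139 cells lie between -0.26 and -0.08 and those of scrambled cells between 0.09 and 0.33, and the ERBB2 symbols lie on the opposite sides of 0.

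**Figure D4:**
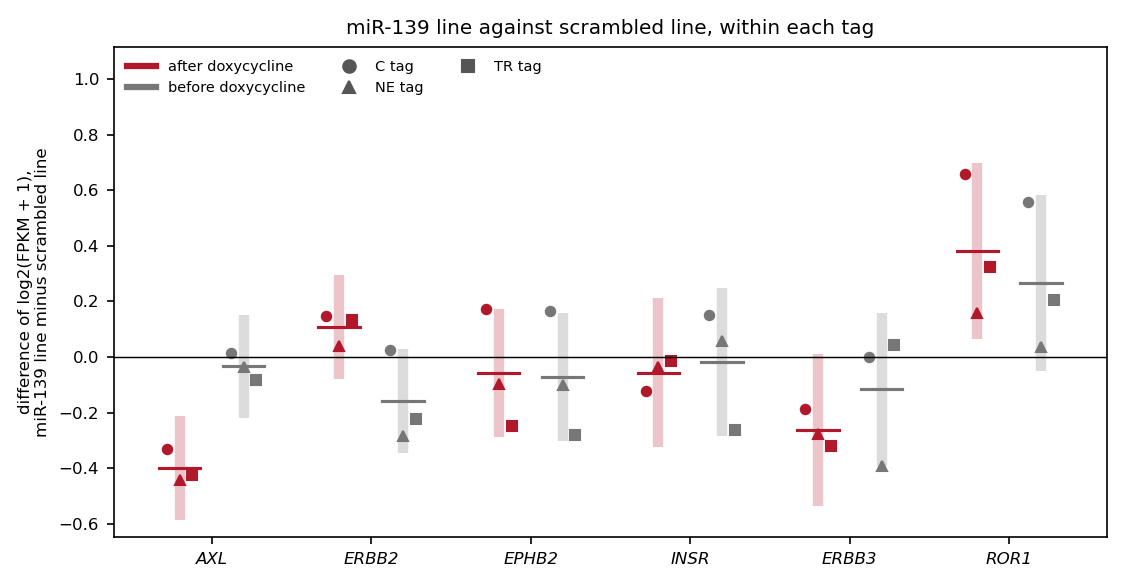
Difference of log2(FPKM + 1), miR-139 line minus scrambled line, within each tag (symbols) after doxycycline (red, left) and before it (grey, right), with the mean (line) and its 95% confidence interval from the fit with the block (shaded). After doxycycline AXL lies at a mean of -0.40 with all 3 symbols below 0, and before it at -0.03, while all 6 symbols of ROR1 lie above 0. The 3 red symbols of ERBB3 and the 3 of INSR also lie below 0.

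The tags, in contrast, gave calls among the members, 2 of the 6 tested for the NE libraries and 2 of 6 for the C against the TR libraries. Only ROR1 in the first and AXL in the second kept the call in 12 of 12 fits that left out 1 library. The NE libraries differed from the mean of the C and TR libraries in 5082 genes (52%), by limma with group and tag in the model. The C libraries differed from the TR libraries in 1628 genes (16.6%) in the same fit. AXL was higher in the C libraries, at 262 ± 25.1 FPKM, than in the TR libraries, at 180 ± 21.9 FPKM (SD, n = 4 each), by 0.54 on the log2 scale (SE 0.07, adjusted p = 4.11e-04). All 4 TR libraries were below the other 8 for AXL, which was so for 503 genes (5.14%), and no other member was among them. ROR1 was called lower in the NE libraries than the mean of the C and TR libraries, by -0.43 on the log2 scale (SE 0.11, limma's adjusted p = 0.00528). It had 1.57 ± 0.125 FPKM in the NE, 2.11 ± 0.752 FPKM in the C and 2.96 ± 0.432 FPKM in the TR libraries (SD, n = 4 each). The NE values were below the C values in miR-139 cells (1.68 against 2.71 FPKM with doxycycline and 1.64 against 2.80 FPKM untreated). In scrambled cells they were not (1.40 against 1.35 FPKM with doxycycline and 1.58 FPKM in both untreated).

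INSR was higher in the C libraries, at 6.14 ± 0.398 FPKM, than in the TR libraries, at 4.63 ± 0.469 FPKM (SD, n = 4 each), by 0.34 on the log2 scale (SE 0.11, limma's adjusted p = 0.0427). All 4 C libraries were above the other 8 for INSR, as for 519 genes (5.31%), and no other member was among them. This call was lost when any 1 of 10 libraries was left out, all but the NE libraries of the untreated miR-139 line and of the treated scrambled line, with values of 0.25 to 0.39 and adjusted p from 0.0509 to 0.172. It was also lost without the filter on low values (limma's adjusted p = 0.0924) and with upper quartile scaling (adjusted p = 0.0555). The AXL mean of the NE libraries, 245 ± 35.1 FPKM (SD, n = 4), lay between those of the C libraries (262 FPKM) and the TR libraries (180 FPKM). Against the mean of C and TR it was called higher, by 0.17 on the log2 scale (SE 0.06, limma's adjusted p = 0.0402). This call was kept only without the C or NE library of the untreated miR-139 line or the TR library of the untreated scrambled line, and without any of the other 9 the value was 0.13 to 0.20 with adjusted p from 0.0513 to 0.154. After quantile normalization the AXL value turned to -0.07 (limma's adjusted p = 0.359), and the call was also lost with upper quartile scaling (0.069, adjusted p = 0.337) and without the variance trend (adjusted p = 0.0575). ERBB2, ERBB3 and EPHB2 were called in neither comparison of tags. ERBB2 was called lower in the NE libraries after quantile normalization (-0.18) and upper quartile scaling (-0.20), against -0.10 as deposited. The mitochondrial share of the FPKM was 6.08 to 9.18% in the NE libraries and 11.4 to 13.1% in the others, and its part in these differences was not tested.

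The tag held more of the variation than the group for AXL, INSR, ROR1 and EPHB2, and less for ERBB2 and ERBB3. Of the sum of squares of log2(FPKM + 1) over the 12 libraries, the tag held 71.2% for AXL, 70.2% for INSR, 62.1% for ROR1, 49.9% for EPHB2, 30.6% for ERBB2 and 13.8% for ERBB3. The 4 groups held 25.5% for AXL, 2.44% for INSR, 26.5% for ROR1, 14.5% for EPHB2, 42.3% for ERBB2 and 51.5% for ERBB3. Summed over all tested genes, the tag held 62.5% and the group 13.1%. Over the 12 libraries AXL and ROR1 ran in opposite directions (r = -0.76, and -0.61 after the mean of each tag was removed). AXL and ERBB3 had r = 0.13, and 0.75 after the tag means were removed, the highest of the 15 pairs of members on that scale. These values describe libraries that share tags and groups.

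The genes around the receptors gave no call between the groups. Of 5 other receptor tyrosine kinases tested, 0 were called in any of the 5 comparisons with or without the block, and their median log2 change was 0.01 with doxycycline in miR-139 cells and 0.00 in scrambled cells, against 0.00 and 0.02 over all tested genes. The same count of 0 held for 11 ligands and co-receptors, 19 adaptors, 22 negative regulators, 11 genes of ERK output and 13 of PI3K-AKT output. The median log2 changes with doxycycline in miR-139 cells were 0.13 for the ligands and co-receptors, 0.00 for the adaptors, -0.03 for the negative regulators and 0.02 for each of the output lists. At an unadjusted p under 0.05 in limma with the block, 1 ligand, 2 adaptors and 1 ERK output gene were counted for doxycycline in miR-139 cells. Over all tested genes that count was 438 of 9778. In scrambled cells 2 ERK output genes and no gene of the other lists were counted, beside 391 of 9778 over all tested genes. The most abundant adaptors were PLCG1 at 129 FPKM, which makes second messengers at activated receptors, and SHC1 at 90.5 FPKM, which links them to GRB2 at 40.9 FPKM. The phosphatases PTPRF and PTPN1, which remove phosphate from receptors such as INSR, averaged 66.97 and 66.3 FPKM.

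Among the feedback inhibitors, ERRFI1, which blocks ERBB kinases, averaged 50.5 ± 3.88 FPKM in miR-139 cells with doxycycline and 56.1 ± 4.83 FPKM in untreated ones, against 65.6 ± 9.15 FPKM in scrambled cells with doxycycline and 56.9 ± 15.1 FPKM in untreated ones (SD, n = 3 each). Its difference of changes was -0.37 (SE 0.16 with the block; not called). SPRY2, an inhibitor induced by ERK, averaged 58.4 FPKM over the 12 libraries, and RNF41, the ubiquitin ligase that degrades ERBB3, 23.8 FPKM. The ERK output genes FOSL1, CCND1 and ETV4 averaged 226, 154 and 94.7 FPKM. FOSL1, a subunit of the AP-1 transcription factor, differed by 0.01 with doxycycline in miR-139 cells and by 0.22 in scrambled cells (SE 0.09 with the block).

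Between the tags members of these lists were called, beside 52% of all tested genes for the NE libraries and 16.6% for the C against the TR libraries. In the NE libraries TYRO3 was higher by 0.75 on the log2 scale (limma's adjusted p = 3.51e-05), while MERTK was lower by -0.69 (adjusted p = 3.64e-05) and IGF1R lower by -0.26 (adjusted p = 0.0316). Of the 11 ligands and co-receptors 3 were higher and 3 lower in the NE libraries, and 1 was higher and 4 lower in the C than in the TR libraries. Of the 22 negative regulators 2 were higher and 9 lower in the NE libraries, and 6 were higher and 2 lower in the C than in the TR libraries. Of the 19 adaptors 5 were higher and 6 lower in the NE libraries, and 1 was higher in the C than in the TR libraries. Of the 11 ERK output genes 2 were higher and 2 lower in the NE libraries, and 2 were higher and 3 lower in the C than in the TR libraries. Of the 13 PI3K-AKT output genes 1 was higher and 7 lower in the NE libraries, and 1 was higher and 1 lower in the C than in the TR libraries. COL1A1 was lower in the C than in the TR libraries by -1.11 (limma's adjusted p = 1.07e-04), the opposite direction to AXL.

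The genes whose log2 values ran most like each member over the 12 libraries were picked by Pearson's r among all tested genes, and r largely reflects tags and groups that the libraries share. For AXL they were AFG3L2, a mitochondrial protease subunit (r = 0.96, and 0.87 after the tag means were removed), CD68, a lysosomal glycoprotein abundant in macrophages (0.96 and 0.89), and the phosphatase PTPRF (0.95 and 0.84). For ERBB2 they were MAPK8IP3, SKI and CCDC92 with r of 0.87, 0.87 and 0.86. For ERBB3 they were ITGA5, COQ9 and ACADS with r of 0.92, 0.89 and 0.87. INSR ran with DUSP16, NCR3LG1 and PSTPIP2 at r of 0.92, 0.89 and 0.89, which were 0.71, 0.62 and 0.69 without the tag means. EPHB2 ran with KRT80, SLCO4A1 and TMEM92 at r of 0.90, 0.89 and 0.89. ROR1 ran with SPON1, an extracellular matrix protein, at r of 0.95 and with S100A1 and SERPINA1 at r of 0.94 and 0.92. SPON1 was 1 of the 11 genes called between the lines after doxycycline with the block, at 1.07 on the log2 scale (SE 0.13, limma's adjusted p = 0.00632). The mesenchymal marker FN1 was another of them, also higher in miR-139 cells, at 1.16 (SE 0.15, limma's adjusted p = 0.00969).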

How the data were processed

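PolyA RNA of 12 CAL62 libraries was sequenced from a strand-specific kit on a HiSeq2500, per the labels' protocols. The authors deposited FPKM values, and the builds GRCh37 and hg19 are listed, per the submitters' processing notes, with Cufflinks, HTSeq, the aligners STAR 2.5, TopHat, Bowtie 1.0.0 and TopHat2 2.0.10, and FastQC 0.11.0 and SAMtools (1.3.1 and 0.1.19). For the FPKM step, the tool, annotation and strand setting were not given in the sources used here. These values are scaled to each library, so a gene that takes a larger share of a library lowers the rest. The FPKM used here summed to 534216 to 664359 per library. No read counts are given. The commonest ratio of values under 0.3 FPKM between libraries, shared by 24.1 to 27.6% of the genes compared, puts the relative depth 2.08 times apart between the deepest and the shallowest, and absolute depth is unknown, so no counting interval is given.

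Column names give group and tag but not the replicate letter, so libraries were assigned to groups only. Deviations from the group mean correlated in all 18 same-tag pairs (r from 0.33 to 0.86) and at -0.66 to 0.14 in the 36 other pairs, so the tag pairs the libraries.

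Tests were made on log2(FPKM + 1) with limma 3.58.1 (R 4.3.3), with a variance trend and genes of mean FPKM of at least 1 (9778 genes). Comparisons of groups used the 4 group means, and those of tags group and tag together. The fit was tested on simulated data. There it called 52% of log2 changes of 1 without the block and 94% with it. Of the smaller changes simulated it called 1% without the block and 43% with it. False calls numbered 1 and 6. Many more genes were changed in the simulation than were called in the data, which makes the adjustment milder there. These rates therefore do not carry over to the data. Levels and sites used Python 3.11.15 with pandas 2.3.3 and numpy 2.4.6. Sites were searched in GENCODE 29 (GRCh38), another build than that of the FPKM, for which all 8 members matched by symbol. Alternatives were a pseudocount of 0.1, no filter, a minimum of 5 FPKM, quantile normalization, upper quartile scaling, no variance trend, the replicate block and leaving out each library.

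The members and gene lists were chosen with earlier results of these data known. The text names the 8 members, list genes called or among the most abundant, the members' ligands and relatives, HNRNPF, and the 3 genes most like each member. EIF4G2 and ERRFI1 were named after their values were seen. One C cell marker is not reported here.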

Additional observations from a re-analysis of the deposited data

Results flagged for a closer look

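AXL was marked because all 3 tags moved one way with doxycycline in the miR-139 line and all 3 the other way in the scrambled line. The difference of its changes was -0.37 on the log2 scale, and limma did not call it with or without the replicate block. ERBB2 was marked for the reverse pattern, with a difference of 0.27, which was not called either. Groups of 3 libraries are too small for a search for single outlying libraries.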

How the results depend on the processing

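Counts of genes called between the groups were 0 without the replicate block and stayed small under the alternatives, and no alternative called a member between groups. Without the filter on low values, 6 genes were called for doxycycline in scrambled cells, 1 for the difference of the changes, 5 between the lines after doxycycline and 2 before it, and 996 genes between the C and TR tags. Quantile normalization gave 1 gene for doxycycline in miR-139 cells and 1 between the lines after it. The replicate block, the paired fit by tag, gave 2 genes for doxycycline in miR-139 cells, 1 for the difference of the changes and 11 between the lines after doxycycline. Without the NE libraries the block gave 2 genes for doxycycline in miR-139 cells and 1 between the lines after it. The block with quantile normalization gave 1, 1, 1 and 10 genes for doxycycline in miR-139 cells, in scrambled cells, the difference and the lines after doxycycline, and with upper quartile scaling 2, 1, 1 and 11. Leaving out 1 library gave 876 to 2170 genes between the C and TR tags, with the lowest count without the C library of untreated scrambled cells. With or without the block, leaving out 1 library gave 0 to 2 genes for doxycycline in miR-139 cells, 0 to 2 in scrambled cells, 0 to 1 for the difference and 0 to 12 between the lines after doxycycline, where the block gave 1 to 4 genes without any 1 treated miR-139 library or without the C or NE library of treated scrambled cells. The block fits with a scaling, and those that leave out a library, were chosen after seeing the data, and the causes of these shifts were not tested.

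After quantile normalization the NE difference of AXL, called as deposited, was -0.070. The other changes of sign were in small log2 changes of members that were not called. Quantile normalization gave 0.043 for the NE difference of INSR. With upper quartile scaling the change of ERBB3 with doxycycline in scrambled cells was -0.013, with and without the block, and its NE difference -0.045. The block without the NE libraries gave 0.038 and 0.049 for INSR with doxycycline in miR-139 and scrambled cells, and 0.022 for ERBB3 between the untreated lines. Under leaving out 1 library, INSR ran from -0.23 to 0.083 with doxycycline in miR-139 cells, -0.13 to 0.047 in scrambled cells, -0.21 to 0.097 in their difference, -0.14 to 0.057 between the lines after doxycycline and -0.15 to 0.16 before it. EPHB2 ran from -0.17 to 0.014, -0.22 to 0.049, -0.14 to 0.13, -0.22 to 0.027 and -0.19 to 0.0082 in that order. ROR1 ran from -0.18 to 0.22, -0.29 to 0.074 and -0.084 to 0.31 with doxycycline in miR-139 cells, in scrambled cells and in their difference. ERBB3 ran from -0.052 to 0.073 in scrambled cells, -0.21 to 0.012 between the untreated lines and -0.0045 to 0.13 in its NE difference, and AXL from -0.18 to 0.13 between the untreated lines. The changes of AXL with doxycycline in miR-139 cells, in scrambled cells, their difference and that between the lines after doxycycline kept their sign in all 34 alternatives, as did those of ERBB2. The filters on level, the variance trend and the full block leave these values as they are, so they could not turn a sign. Under leaving out 1 library, AXL ran from -0.35 to -0.0019, 0.040 to 0.35, -0.53 to -0.18 and -0.57 to -0.22 in that order. ERBB2 ran from 0.053 to 0.21, -0.18 to -0.083, 0.19 to 0.34 and 0.065 to 0.15. ERBB3 and ROR1 could not be tested at a minimum of 5 FPKM. No member kept a seed site when only the 8-letter form counted (0 against 2 of 8). FPKM carry no counts, so no depth limit could be given for RET and DDR2.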
